A study of Mus musculus with 6 samples.

Results

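Transcript levels of 9 enzymes of serine synthesis and folate-dependent one-carbon metabolism were examined in the anterior (AP), dorsolateral (DLP) and ventral (VP) lobes of the mouse prostate. The genes were set by name and are listed in the deposited table as PHGDH, PSAT1, PSPH, SHMT1, SHMT2, MTHFD1, MTHFD2, MTHFD1L and ALDH1L2, and they are written below as mouse genes (Phgdh and so on). All 9 were found among the 24908 genes of the table. Bulk RNA-seq was available from 1 MYC mouse and 1 wild-type (WT) littermate, both 12-week-old males of the FVB strain on the same purified diet. The MYC mouse was heterozygous for Hi-MYC, a human c-MYC transgene that the androgen-responsive ARR2Pb promoter drives in prostatic epithelium, and the WT mouse lacked it. Each lobe of each mouse was dissociated into cells and gave 1 library, 6 in all. Genotype and animal therefore cannot be told apart, and no test was run.

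Cells build serine from a glycolytic intermediate in 3 steps, carried out by phosphoglycerate dehydrogenase (Phgdh), phosphoserine aminotransferase (Psat1) and phosphoserine phosphatase (Psph). Serine hydroxymethyltransferase then splits serine into glycine and a carbon unit that is handed to folate, in the cytosol (Shmt1) and in mitochondria (Shmt2). In mitochondria Mthfd2 oxidizes the folate-bound unit, Mthfd1l releases it as formate for export, and Aldh1l2 burns it to carbon dioxide while making NADPH. In the cytosol Mthfd1 takes formate back onto folate, and the units go into purines, thymidylate and methionine. Several of these genes are known targets of the stress-responsive factor ATF4 and of MYC.

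The values are FPKM, which are scaled to transcript length and to the number of mapped reads, so that levels may be compared between genes as well as between libraries. Genotypes and lobes were compared by the log2 ratio of FPKM + 1 (called the log2 ratio), which understates the change of low genes, and a gene was counted past 2-fold when this ratio was at least 1 or at most -1. The ratio of FPKM itself is given with a 95% interval (exact binomial, Clopper-Pearson) from an estimate of the reads behind it, which covers counting error only. The libraries held an estimated 25.5 M to 50.3 M mapped reads, with WT AP the shallowest. Of the 9 genes in the 6 libraries, the fewest estimated reads were 77 (Psph in WT AP) and the most 3137 (Shmt2 in MYC VP). All 9 genes averaged 1 FPKM or more over the libraries, as did 12361 genes in all, which served as the background. Where values of the lobes are listed without names, they are in the order AP, DLP and VP.

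The gene listed as Myc, whose reads the table does not separate into mouse and human, had 230.0, 200.6 and 226.4 FPKM in the WT lobes. In the MYC lobes it had 230.9, 586.1 and 1696 FPKM. The AP library of the MYC mouse thus did not differ from its WT counterpart in this listed value, while the DLP and VP libraries did. Krt8 and Krt18, keratins that mark luminal cells, had at least 387.9 FPKM in every library.

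The promoters of the pair Shmt1 and Shmt2 and of Mthfd2, whose levels moved in opposite directions in VP, are shown as the 150 bases before the RefSeq transcription start on GRCm38.p6, each 5′ to 3′ on the strand of the gene. Capitals mark matches to CCAAT, to the GC box GGGCGG and to the E-box form CACGCG, on either strand. Shmt1 lies on chromosome 11 (chr11:60811266-60811415, minus strand), Shmt2 on chromosome 10 (chr10:127522445-127522594, minus strand) and Mthfd2 on chromosome 6 (chr6:83317605-83317754, minus strand).
Shmt1: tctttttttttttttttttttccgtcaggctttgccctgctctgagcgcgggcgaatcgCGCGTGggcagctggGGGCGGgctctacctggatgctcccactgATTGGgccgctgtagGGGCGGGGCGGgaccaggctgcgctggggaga
Shmt2: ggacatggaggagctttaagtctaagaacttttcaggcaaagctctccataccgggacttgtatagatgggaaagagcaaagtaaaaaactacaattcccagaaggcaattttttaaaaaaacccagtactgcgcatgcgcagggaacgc
Mthfd2: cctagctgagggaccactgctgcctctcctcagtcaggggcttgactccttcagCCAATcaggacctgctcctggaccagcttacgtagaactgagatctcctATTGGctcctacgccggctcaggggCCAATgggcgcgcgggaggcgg
Mthfd2 held 3 CCAAT matches, beginning 96, 47 and 22 bases before the start. Shmt1 held 3 GC box matches and 1 each of CCAAT and CACGCG, and the 150 bases of Shmt2 held none of the 3. RefSeq places the gene span of Mthfd2 (chromosome 6, 83305704 to 83326011) beyond this start, so that a longer transcript begins further upstream. The E-box CACGTG, to which MYC with its partner MAX binds, and TGATGNAA, the core of the composite element bound by ATF4, were searched on both strands in 9 windows of 8 of the genes, from 250 bases before to 50 after each start. Neither was found in any of the 9 windows, against 7.15% and 3.97% of all 32851 windows. After those had given no match, the same windows were searched for the other 3 motifs. The CCAAT box was in 6 of the 9 windows, against 37.4% of all windows, and the GC box in 5 of the 9, against 35.7%. The other E-box form was in 4 of the 9, which belong to 3 genes (Shmt1, Shmt2 and Psat1 with both its windows), against 9.27%. The shares of all windows are not matched for base composition: the 150 bases before the start held from 3 to 16 CpG in these windows and a median of 4 over all windows. A match is a stretch of letters and not a measured site.

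In the WT mouse the 9 genes spanned a wide range of levels, with Phgdh and Mthfd2 the highest and Mthfd1l and Aldh1l2 among the lowest. Mthfd2 led in WT AP at 30.11 FPKM, ahead of Phgdh at 25.61, and Phgdh led in WT DLP and WT VP. Psph, the last enzyme of serine synthesis, had 3.73, 4.85 and 4.55 FPKM in the WT lobes and 3.66, 4.08 and 4.30 FPKM in the MYC lobes. It was the lowest of the serine synthesis enzymes in every library and varied least of the 9 genes, 1.32-fold between its lowest and highest library. These levels rest on 1 animal, and their order has no replicate check.

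The enzymes of serine synthesis differed from each other in their lobe pattern. Phgdh (chromosome 3, 98313171 to 98339969) had 25.61, 35.97 and 50.20 FPKM in the WT lobes and 23.77, 27.32 and 51.09 FPKM in the MYC lobes. In both mice it was lowest in AP and highest in VP. Psat1 (chromosome 19, 15905123 to 15925059) had the reverse order in the WT mouse, with 23.57, 16.46 and 11.67 FPKM in AP, DLP and VP, and 15.86, 16.63 and 13.47 FPKM in the MYC mouse. Phgdh was thus 1.09 times as abundant as Psat1 in WT AP and 4.30 times in WT VP. The lobes of the MYC mouse had within-library ratios of 1.499, 1.64 and 3.79. The WT VP/AP ratio of Phgdh was 1.96 (interval 1.80 to 2.14) and that of Psat1 0.495 (0.452 to 0.542), with log2 ratios of 0.94 and -0.96. Neither reached 2-fold on this scale, but Phgdh did with median-of-ratios size factors (1.02) and a trimmed mean (1.09), and Psat1 did with equal sums (-1.08) and a pseudocount of 0.1 (-1.01). Over all genes 7.89% were at least 2-fold higher and 10.3% lower in WT VP than in WT AP.

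Among the WT lobes, Aldh1l2 (chromosome 10, 83487447 to 83534146) differed most in log2 ratio, with 2.79 FPKM in AP, 0.814 in DLP and 3.25 in VP. The WT DLP/AP ratio was 0.292 (interval 0.243 to 0.351) and the WT VP/DLP ratio 3.99 (3.39 to 4.71). With the values as deposited and a pseudocount of 1, no other of the 9 genes was past 2-fold between WT lobes. It was lower in WT DLP than in WT AP, where 1.31% of all genes were lower and 3.85% higher, and higher in WT VP than in WT DLP, where 2.63% of all genes were higher and 6.29% lower. Mthfd1l (chromosome 10, 3972892 to 4167081) was highest in AP and lowest in VP, at 2.22, 1.62 and 0.844 FPKM, a WT VP/AP ratio of 0.381 (0.305 to 0.476) whose log2 ratio was -0.80, and -1.30 with a pseudocount of 0.1. Mthfd2 had 30.11 FPKM in AP, 34.81 in DLP and 19.13 in VP. Shmt1, Shmt2 and Mthfd1 lay closer together across WT lobes, each within 1.69-fold, and the sign of their WT VP/DLP log2 ratios changed under another scaling. Between the lobes of the MYC mouse, Shmt1 was 2.95 times, Mthfd1l 2.37 times, Shmt2 2.34 times and Phgdh 2.15 times as abundant in VP as in AP, and Aldh1l2 0.212 times. On the log2 scale 3 of the 9 genes (without Mthfd1l, at 0.88) were at least 2-fold higher and 1 lower there, against 8.98% and 16.1% of all genes.

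**Figure D1:**
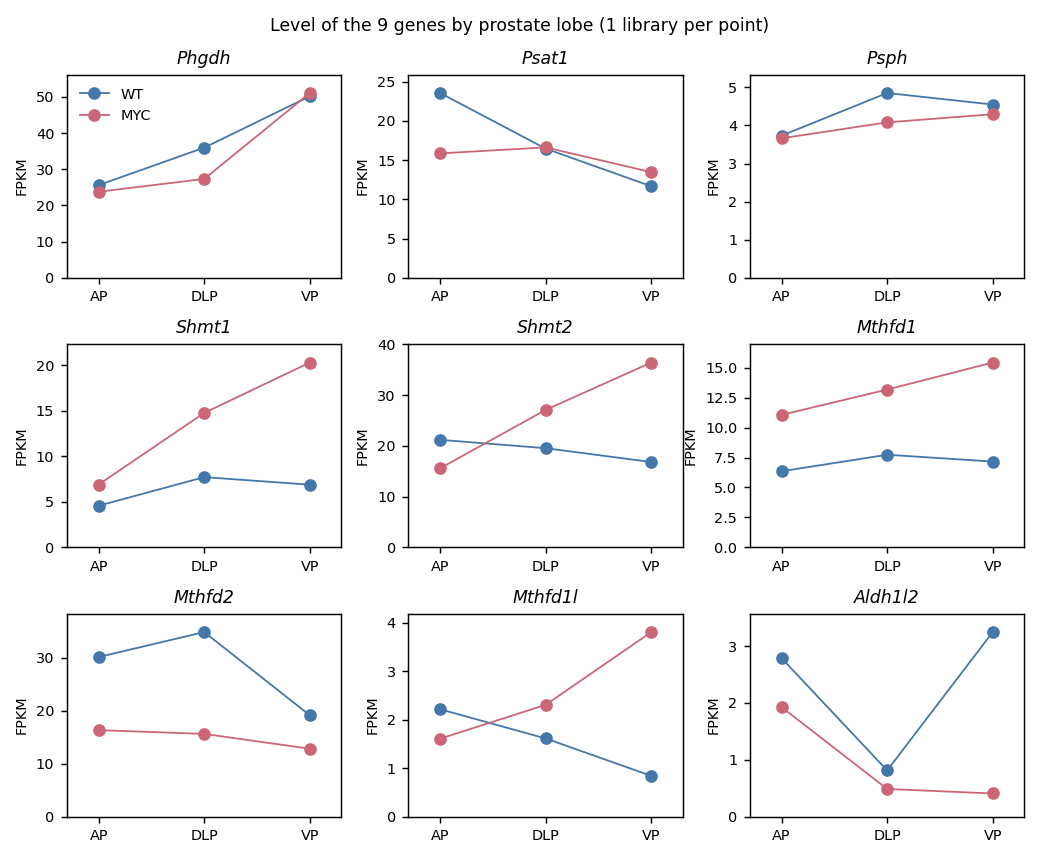
FPKM of each of the 9 genes (vertical axes, starting at 0) in AP, DLP and VP of the WT mouse (blue) and the MYC mouse (red), where a point is 1 library and lines join the lobes of 1 mouse. Shmt1, Shmt2, Mthfd1 and Mthfd1l of the MYC mouse lie above WT in DLP and VP, Mthfd2 and Aldh1l2 lie below WT in all 3 lobes, and Phgdh climbs towards VP in both mice.

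In VP, the lobe with the highest Myc value, the 9 genes divided. Both serine hydroxymethyltransferases, Mthfd1 and Mthfd1l were more than 2-fold higher in MYC than in WT, Aldh1l2 was lower by more than 2-fold, Mthfd2 was lower by less, and the serine synthesis enzymes stood close to WT. In the count, 4 of the 9 genes were at least 2-fold higher and 1 lower, where 6.88% of all genes were higher and 5.95% lower. The median log2 ratio of the 9 was 0.19 against 0.04 over all genes. Shmt2 and Mthfd1 lay just past the threshold: 3 other scalings of the libraries left 2 genes higher, Shmt1 and Mthfd1l, with log2 ratios between 0.84 and 0.97 for Shmt2 and between 0.79 and 0.92 for Mthfd1.

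Shmt1 (chromosome 11, 60788897 to 60811265) had in VP 6.88 FPKM in WT and 20.32 in MYC, a ratio of 2.95 (interval 2.67 to 3.26) and a log2 ratio of 1.44 that 3.03% of all genes exceeded. Its mitochondrial counterpart Shmt2 (chromosome 10, 127517123 to 127522444) had 16.81 and 36.44 FPKM, a ratio of 2.17 (2.04 to 2.30). Mthfd1l, the formate-releasing enzyme, had 0.844 and 3.81 FPKM. Its ratio of 4.51 (3.75 to 5.46) was the highest of the 9, from the lowest WT VP level. Mthfd1 (chromosome 12, 76254406 to 76319820), which takes up formate in the cytosol, had 7.17 and 15.46 FPKM, a ratio of 2.16 (1.99 to 2.33).

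The 2 remaining mitochondrial enzymes were lower in MYC VP. Aldh1l2 had 3.25 FPKM in WT and 0.409 in MYC, a ratio of 0.126 (interval 0.0991 to 0.159) and a log2 ratio of -1.59 below which 1.72% of all genes lay. It rested on an estimated 771 reads in WT VP and 81 in MYC VP. Mthfd2 had 19.13 and 12.83 FPKM, a ratio of 0.670 (0.620 to 0.725) and a log2 ratio of -0.54. Mitochondrial enzymes therefore lay on both sides of WT in this lobe, with Shmt2 and Mthfd1l above and Mthfd2 and Aldh1l2 below.

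Serine synthesis differed little between the VP libraries. Phgdh had a MYC/WT ratio of 1.02 (interval 0.959 to 1.08), Psat1 of 1.15 (1.053 to 1.27) and Psph (chromosome 5, 129765558 to 129787443) of 0.944 (0.757 to 1.19). The sign of each of these log2 ratios changed under at least 1 other scaling, whereas the sign held for the other 6 genes in VP under all 5 alternatives. The intervals do not cover the spread between animals, which 1 library per genotype cannot show.

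In DLP no gene was 2-fold higher and Mthfd2 was lower, against 6.46% of all genes higher and 3.39% lower. The median log2 ratio of the 9 was 0.01 against 0.03 over all genes. Mthfd2 had 34.81 FPKM in WT DLP and 15.62 in MYC DLP, a ratio of 0.449 (interval 0.418 to 0.482) and a log2 ratio of -1.11 below which 2.57% of all genes lay. Shmt1 had 7.71 and 14.78 FPKM, a ratio of 1.92 (1.72 to 2.13), and Mthfd1 7.74 and 13.19 FPKM, a ratio of 1.70 (1.57 to 1.85). Shmt2 had 19.54 and 27.10 FPKM, a ratio of 1.39 (1.30 to 1.48), and Mthfd1l 1.62 and 2.31 FPKM, a ratio of 1.43 (1.21 to 1.70). These 4 genes, which were past 2-fold in VP, were on the same side of WT in DLP by smaller ratios. Aldh1l2, at 0.814 and 0.488 FPKM, had a ratio of 0.600 (0.455 to 0.782). For serine synthesis the ratio was 0.760 in Phgdh, whose interval ended at 0.824, 0.841 in Psph (0.661 to 1.07) and 1.01 in Psat1, whose log2 ratio changed sign under another scaling.

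In AP, where the Myc value matched WT, none of the 9 genes was past 2-fold, against 2.05% of all genes higher and 0.599% lower. The median log2 ratio of the 9 was -0.30 against 0.13 over all genes, and 7 of the 9 lay below 0, as did 33.3% of all genes. In DLP 4 of the 9 lay below 0, against 46.2% of all genes, and in VP 3 of the 9, against 46.4%. Mthfd2 had 30.11 FPKM in WT AP and 16.33 in MYC AP, a ratio of 0.542 (interval 0.504 to 0.583), and its log2 ratio of -0.84 was lower than that of all but 1.14% of genes. Psat1 had a ratio of 0.673 (0.620 to 0.732). Aldh1l2, at 2.79 FPKM in WT and 1.93 in MYC, had a ratio of 0.691 (0.601 to 0.799), and Mthfd1l, at 2.22 and 1.61 FPKM, of 0.726 (0.603 to 0.878). Shmt2 had 21.19 and 15.58 FPKM, a ratio of 0.735 (0.681 to 0.794). The genes above WT were Mthfd1, with 6.36 and 11.08 FPKM and a ratio of 1.74 (1.57 to 1.94), and Shmt1, with 4.57 and 6.89 FPKM and a ratio of 1.51 (1.28 to 1.79). Phgdh and Psph had ratios of 0.928 (0.842 to 1.02) and 0.981 (0.736 to 1.30), whose log2 ratios changed sign under another scaling.

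**Figure D2:**
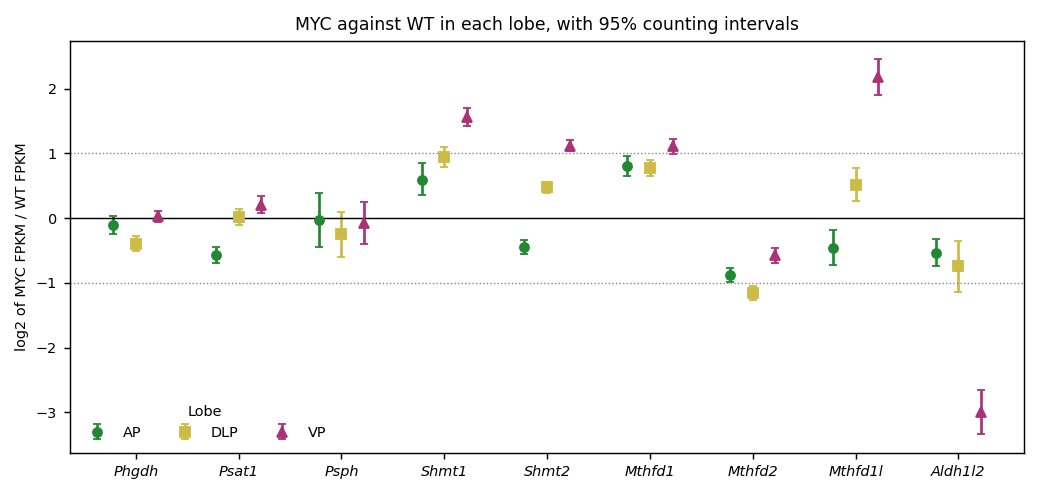
Log2 of the MYC/WT ratio of FPKM (vertical axis, no pseudocount) for each of the 9 genes in AP (circles), DLP (squares) and VP (triangles), with 95% counting intervals as bars and dotted lines at 2-fold. Mthfd2 and Aldh1l2 lie below 0 and Shmt1 and Mthfd1 above 0 in all 3 lobes, while Shmt2 and Mthfd1l lie below 0 in AP and above 0 in DLP and VP.

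Across the lobes, Shmt1 and Mthfd1, the cytosolic folate enzymes among the 9, were above WT in 3 of 3 lobes, and Mthfd2, Aldh1l2 and Psph were below WT in 3 of 3. These 2 and 3 of the 9 genes stand beside 29.9% of all genes above WT in 3 of 3 lobes and 13.9% below. The signs held under all 5 alternatives except for Psph in AP and VP. The 3 comparisons use different libraries of the same 2 mice and are not independent. Mthfd2 was the most abundant of the 9 genes in WT AP and was the sixth in MYC VP, behind Phgdh, Shmt2, Shmt1, Mthfd1 and Psat1. Within a library, the ratio of Mthfd2 to Mthfd1 does not depend on the scaling. It was 4.74, 4.50 and 2.67 in the WT lobes and 1.47, 1.18 and 0.830 in the MYC lobes. The ratio of Shmt2 to Mthfd2 was 0.704, 0.561 and 0.879 in the WT lobes and 0.954, 1.74 and 2.84 in the MYC lobes. The ratio of Shmt2 to Shmt1 was 4.64, 2.53 and 2.44 in the WT lobes and 2.26, 1.83 and 1.79 in the MYC lobes, so that Shmt2 remained the higher of the pair in all 6 libraries. The lobes of 1 mouse are not replicates of its genotype, and these pairs were chosen after their values were seen.

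**Figure D3:**
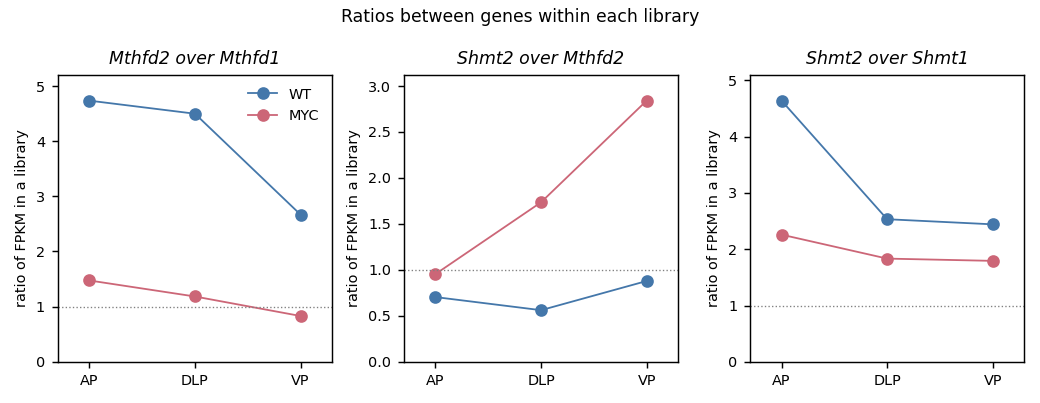
Ratio of the FPKM of 2 genes in the same library (vertical axes, starting at 0) by lobe for the WT mouse (blue) and the MYC mouse (red), with a dotted line where both genes have equal FPKM. The Mthfd2 to Mthfd1 ratio lies between 2.67 and 4.74 in WT and between 0.830 and 1.47 in MYC, and the Shmt2 to Mthfd2 ratio exceeds 1 in MYC DLP and MYC VP.

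Over the 6 libraries, Shmt1, Shmt2, Mthfd1 and Mthfd1l correlated with each other in log2(FPKM + 1), with Pearson's r between 0.66 and 0.90. Mthfd2 correlated negatively with all 4, at r = -0.84 with Mthfd1 and -0.36 with Mthfd1l, and so did Aldh1l2, at r between -0.85 and -0.69. Phgdh and Psat1, consecutive enzymes of serine synthesis, had r = -0.76. With the Myc value, r was 0.92 for Shmt1, 0.93 for Shmt2, 0.84 for Mthfd1 and 0.83 for Mthfd1l, -0.72 for Mthfd2 and -0.71 for Aldh1l2, and 0.42, -0.29 and 0.02 for Phgdh, Psat1 and Psph. These are descriptions over 6 points that share 2 animals, and no p-value is given.

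Among the 5359 genes that averaged 10 FPKM or more, those whose pattern was most like Shmt1 were Rpl11 (r = 0.998), Gm15772 and Rpl32 (both 0.997), of which Rpl11 and Rpl32 encode ribosomal proteins. In all, 238 genes had r above 0.95 with Shmt1, 98 with Phgdh and 11 with Mthfd2. Rpl11 had 207.4, 287.0 and 262.8 FPKM in the WT lobes and 274.8, 425.6 and 565.5 FPKM in the MYC lobes. For Phgdh the nearest genes were Eif4g1, a translation initiation factor (r = 0.995), Bet1l and Tspan13 (both 0.992). For Mthfd2 they were Tmpo, Opa3 (both 0.98) and 0610037L13Rik (0.97).

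**Figure D4:**
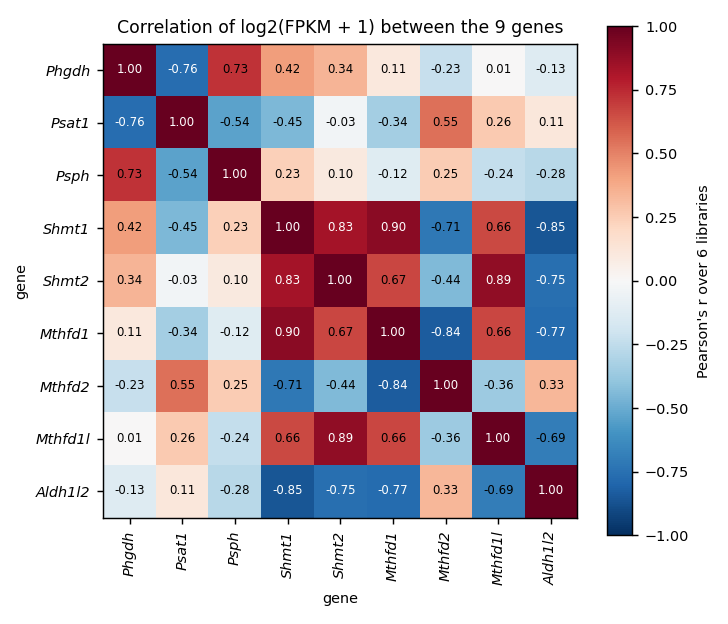
Pearson's r of log2(FPKM + 1) over the 6 libraries between each pair of the 9 genes (rows and columns), from -1 (blue) to 1 (red). Shmt1, Shmt2, Mthfd1 and Mthfd1l form a red block with r of at least 0.66, and Mthfd2 and Aldh1l2 are blue against it.

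The rest of the pathway was described by 6 lists of 42 genes, of which 34 averaged 1 FPKM or more. In VP 2 of the 34 (5.88%) were at least 2-fold higher and 2 (5.88%) lower in MYC, near the shares of all genes, 6.88% and 5.95%. In DLP 0 were higher and 2 (5.88%) lower, against 6.46% and 3.39% of all genes, and in AP 0 were past 2-fold in either direction, against 2.05% and 0.599%. The higher genes in VP were Slc19a1, the reduced folate carrier that brings folate into cells, and Gldc, the decarboxylase of the mitochondrial glycine cleavage system. Slc19a1 had 2.35, 2.87 and 3.12 FPKM in the WT lobes, and 2.46, 4.66 and 11.69 FPKM in the MYC lobes, with a log2 ratio of 1.62 in VP. Gldc had 0.350, 0.361 and 1.24 FPKM in the WT lobes and 0.741, 1.35 and 3.61 FPKM in the MYC lobes. Its log2 ratio of 1.04 in VP was under 1 with 3 other scalings. Gldc averaged 1 FPKM or more only through MYC VP, so that its place among the 34 rests on the library where it was higher. Like the 4 genes above, both were highest in MYC VP, but they were named because they were higher there than in WT VP.

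None of the other folate enzymes was past 2-fold with a pseudocount of 1. Tyms, which makes thymidylate, had 1.04, 0.839 and 1.17 FPKM in the WT lobes and 1.45, 2.52 and 2.89 FPKM in the MYC lobes, with log2 ratios of 0.26, 0.94 and 0.84 in AP, DLP and VP. With a pseudocount of 0.1, 1 gene of this list was at least 2-fold higher in DLP and in VP. Mthfd2l, the paralogue of Mthfd2, had in VP 1.60 FPKM in WT and 2.48 in MYC, so that Mthfd2 was 12.0 times as abundant as Mthfd2l in WT VP and 5.17 times in MYC VP. Aldh1l1, the cytosolic counterpart of Aldh1l2, had 2.43 and 1.69 FPKM in the same libraries.

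In the methionine cycle and its branches, Mat2a, which makes S-adenosylmethionine, had in VP 308.3 FPKM in WT and 142.3 in MYC, a log2 ratio of -1.11. It had 150.6 and 81.53 FPKM in DLP and 143.6 and 114.4 in AP, so that it was lower in MYC in all 3 lobes. Sardh, which breaks down sarcosine, had in VP 3.26 FPKM in WT and 0.229 in MYC. In DLP the genes past 2-fold were Gnmt, a glycine methyltransferase, at 22.39 and 9.36 FPKM in WT and MYC, and Cbs, the first enzyme of transsulfuration, at 20.70 and 6.54 FPKM. Gnmt had the opposite sign in VP, with 24.93 FPKM in WT and 47.53 in MYC.

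Atf4 and 9 of its known targets outside this pathway were described beside the pathway: 9 of the 10 genes lay below 0 in AP and VP and 7 in DLP, where 33.3%, 46.4% and 46.2% of all genes did. In AP 1 of the 9 was Ddit3, which was level with WT (68.5 and 68.4 FPKM). The median log2 ratios of the list were -0.51, -0.29 and -0.82 in AP, DLP and VP, against 0.13, 0.03 and 0.04 over all genes. Past 2-fold were Asns, Trib3 and Sesn2 in AP, Atf5 in DLP, and Atf5, Ddit3, Trib3 and Chac1 in VP, all lower, or 3, 1 and 4 of the 10, where 0.599%, 3.39% and 5.95% of all genes were lower. In DLP the count was 2 with each of the 3 other scalings. Atf4 itself had 586.5, 506.5 and 651.5 FPKM in the WT lobes and 453.0, 405.7 and 411.1 FPKM in the MYC lobes. Trib3, an inhibitor of ATF4, had 11.04, 8.58 and 5.48 FPKM in the WT lobes and 4.02, 4.87 and 1.90 in the MYC lobes. Asns, asparagine synthetase, was lower in MYC AP (24.18 against 53.79 FPKM) but higher in MYC VP (46.48 against 30.78 FPKM).

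**Figure D5:**
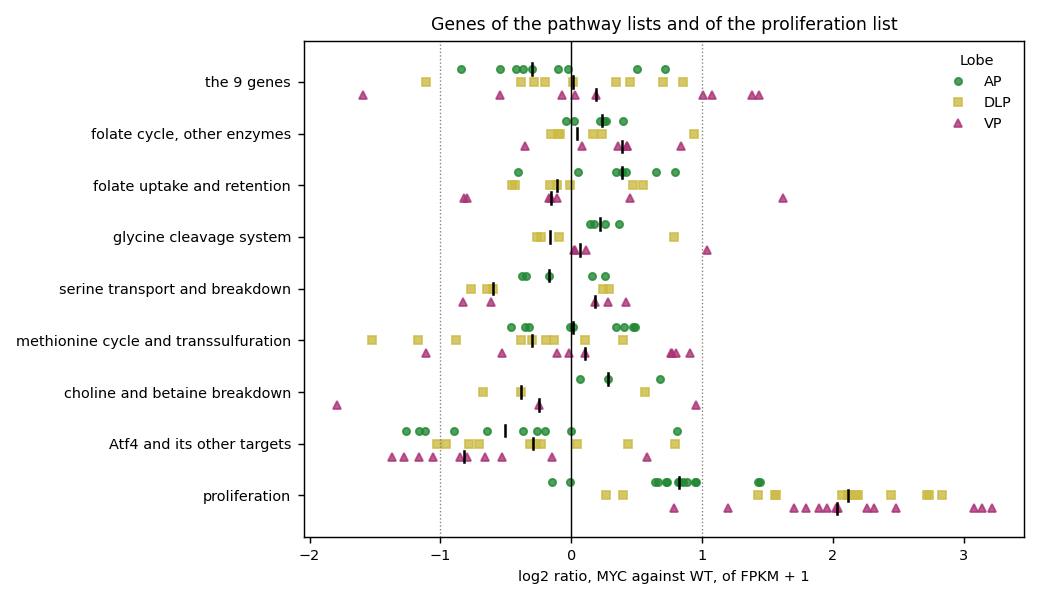
Log2 ratio of MYC against WT, of FPKM + 1 (horizontal axis), for each gene of the 9, of 6 other lists of the pathway, of an ATF4 list and of a proliferation list (rows) in AP (circles), DLP (squares) and VP (triangles), with a black bar at the median and dotted lines at 2-fold. The ATF4 list has medians of -0.51, -0.29 and -0.82, and the proliferation list lies above 0 for all 14 genes in DLP and VP.

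Marker genes of cell populations also differed in level between these libraries. A list of 14 proliferation genes summed to 47.7 FPKM in WT and 171.9 in MYC in VP, 80.1 and 181.8 in DLP and 88.3 and 110.6 in AP. At least 2-fold higher were 13 in VP, 12 in DLP and 2 in AP, against 6.88%, 6.46% and 2.05% of all genes. Most of the WT sums was Pcna, level in AP (62.11 and 61.83 FPKM), where the median log2 ratio was 0.82. Several, among them Ccnb1, Cdk1, Aurkb and Plk1 (at most 0.409 FPKM in any WT library), averaged 1 FPKM or more only through MYC libraries. The 8 hematopoietic markers summed to 136.8 and 368.2 FPKM in VP, 268.1 and 1085 in DLP and 573.0 and 391.2 in AP. In DLP 8 of the 8 were at least 2-fold higher, against 6.46% of all genes. In AP, however, 4 lay above and 4 below WT (median log2 ratio -0.04), and the lower sum was mostly Cd74 (470.8 and 299.4 FPKM). The 6 fibroblast markers summed to 648.1 and 194.9 FPKM in VP, 1284 and 698.5 in DLP and 1201 and 1365 in AP. Most of this was Dcn. In DLP Col1a1 and Col3a1 were at least 2-fold higher (log2 ratios 1.98 and 2.03) and Dcn and Pdgfra lower, against 6.46% and 3.39% of all genes. In AP 3 of the 6, the collagens, were at least 2-fold higher, against 2.05% of all genes. The 5 smooth muscle markers summed to 215.3, 383.1 and 330.4 FPKM in the WT lobes and 348.0, 231.9 and 207.1 FPKM in the MYC lobes. The 4 basal markers summed to 407.4 and 278.4 FPKM in VP, 917.8 and 1286 in DLP and 1337 and 859.3 in AP. In AP Krt14 was lower (760.5 and 333.1 FPKM), Trp63 higher (5.79 and 19.23 FPKM) and Krt5 level (108.9 and 109.2 FPKM). The 5 endothelial markers summed to 116.5, 85.4 and 17.3 FPKM in the WT lobes and 124.0, 97.6 and 19.2 FPKM in the MYC lobes. The 6 luminal genes summed to 3791 and 3478 FPKM in VP, 1635 and 2283 in DLP and 1435 and 1686 in AP. Of the 3 adipocyte markers, Plin1 was listed at 0 in all libraries and the sum was between 27.2 and 64.8 FPKM. The 7 seminal vesicle genes summed to 522.1, 9.17 and 0 FPKM in the MYC lobes and to at most 0.112 in WT, so that they were nearly all in the AP library of the MYC mouse. The part of these marker differences in the levels of the 9 genes was not tested. In bulk RNA, more cells of a type cannot be told apart from more RNA per cell.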

How the data were processed

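Bulk RNA-seq of 6 libraries was analysed, 1 per lobe and genotype, grouped by the sample titles. Per the labels, the submitters' processing notes and the study's methods, reads (single-end) went through bcl2fastq 2.18, STAR with mm10 and Cufflinks, and the authors deposited 1 table, taken here as FPKM. The study's methods call the Cufflinks output read counts, but most deposited values have decimals and low ones step with transcript length. The annotation, and whether strand was used in counting, are not given in the sources used here. Values were used as deposited; no p-value was computed, since each group has 1 library.

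Reads were estimated as FPKM times the mean GENCODE M1 coding transcript length less 200 bases times depth. Depth came from the steps of values under 0.3 FPKM of genes with 1 transcript of 1 exon, of which between 54.9% and 63.5% lay within 3% of whole reads. Estimated depths, for AP, DLP and VP, were 25.5 M, 47.3 M and 49.7 M reads in WT and 50.3 M, 34.8 M and 41.4 M in MYC. The intervals cover counting error only. In data simulated as a VP pair (10298 genes), all 200 genes changed 4-fold were recovered, with 1 false call. A 4-fold change lies well past the threshold used for the counts, so this recovery checks the calculation only. It cannot show how changes near the threshold would be called, nor the spread between animals. Coordinates are those of RefSeq on GRCm38.p6, the assembly of mm10, and promoters were found for 8 of the 9 genes.

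The members and lists were chosen with earlier results of these data known. Named were the 9 genes, list genes past 2-fold or fixed by name, the 3 genes most like Phgdh, Shmt1 and Mthfd2, and Myc. Some genes fixed by name are not reported here. Genes of other lists named for other reasons were chosen after their values were seen. The alternatives tried were median-of-ratios size factors, scaling to equal sums, a trimmed mean of log ratios, a pseudocount of 0.1 and values relative to the mean of Krt8 and Krt18 (chosen after seeing the data, between genotypes only), which are the 5 behind statements on sign, and further a 1.5-fold threshold and minimum means of 0 and 10 FPKM. The work used Python 3.11.15 with pandas 2.3.3, numpy 2.4.6, matplotlib 3.10.9 and scipy 1.17.1.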

Additional observations from a re-analysis of the deposited data

Results flagged for a closer look

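Genes of the pathway and of the ATF4 list were singled out where the MYC against WT log2 ratio had opposite signs in 2 lobes, lay at least 1 apart, and had counting intervals off 0 in both. None of these differences was tested, since each rests on 1 library per lobe and genotype.

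Of the 9 genes, Shmt2 had a log2 ratio of -0.42 in AP and 1.07 in VP, a difference of 1.49, and Mthfd1l had -0.30 in AP and 1.38 in VP, a difference of 1.68. Both encode mitochondrial enzymes. Their cytosolic counterparts Shmt1 and Mthfd1 had the same sign in all 3 lobes.

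Of the other lists, Asns differed by 1.70 between AP (-1.12) and VP (0.58). Slc46a1, a folate transporter, differed by -1.23 between AP (0.41) and VP (-0.82), Ggh, which trims stored folate, by -1.14 (0.35 and -0.79), and Nupr1 by -1.34 (0.81 and -0.53). Between DLP and VP, Gnmt differed by 2.08 (-1.17 and 0.90), Mtrr, methionine synthase reductase, by 1.14 (-0.38 and 0.76), and Ddit3 by -1.71 (0.43 and -1.28). Between AP and DLP, Cbs differed by -2.00 (0.47 and -1.53) and Chdh, choline dehydrogenase, by -1.36 (0.68 and -0.68).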

How the results depend on the processing

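The number of the 9 genes at least 2-fold higher in MYC VP was 4 as deposited, with a pseudocount of 0.1 and relative to Krt8 and Krt18, which were themselves lower in MYC VP, so that this setting raised the VP median of all genes from 0.04 to 0.23. It was 2 with size factors from medians of ratios, with equal sums and with a trimmed mean of log ratios, which placed Shmt2 at 0.84 to 0.97 and Mthfd1 at 0.79 to 0.92. Equal sums lowered the VP median of all genes from 0.04 to -0.15. With a threshold of 1.5-fold, AP had 1 gene higher and 1 lower, and DLP had 2 higher, where 2-fold gave none. The other counts of the 9 genes changed by at most 1.5 times. Between genotypes, the sign of the log2 ratio held under all 5 alternatives for 7 of the 9 genes in AP (not Phgdh and Psph), 8 in DLP (not Psat1) and 6 in VP (not Phgdh, Psat1 and Psph). Between WT lobes it held under 4 alternatives for 9 genes in VP against AP, 8 in DLP against AP (not Mthfd2) and 5 in VP against DLP (not Psph, Shmt1, Shmt2 and Mthfd1), while Phgdh, Psat1 and Mthfd1l passed 2-fold in VP against AP under some alternatives. Aldh1l2 in VP moved most, between -2.72 with a pseudocount of 0.1 and -1.03 relative to Krt8 and Krt18. Without the minimum of 1 FPKM, the share of all genes past 2-fold fell in VP to 3.76% higher and 3.03% lower, in DLP to 3.85% and 1.82%, and in AP to 1.12% and 0.321%, as genes of lower values then count among those tested. Of 168 values of other list counts, 153 stayed within 1.5 times. Depth limits Psph most in WT AP (77 estimated reads), Mthfd1l in WT VP (144) and Aldh1l2 in MYC DLP and VP (81 in each). No replicate could be left out, since each group has 1 library.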
